A study of Mus musculus with 6 samples.

Results

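The genes described here are the canonical histone genes of the mouse and 4 histone variants, H2afx, H2afz, H3f3a and H3f3b, measured in the cornea by RNA sequencing. Members were chosen by name: symbols that begin with Hist1h, Hist2h, Hist3h or Hist4h, with the 4 variants added and pseudogene symbols left out, and a value above 0 TPM in at least 1 library. TPM is the share that a transcript takes of its library, corrected for length. Of 73 symbols that fit the names, 69 met the rule, 65 canonical genes and the 4 variants, out of 24958 genes above 0 TPM among 54446 gene rows. The other 4, Hist1h2aa, Hist1h2ba, Hist1h2bn and Hist2h2ab, were listed at 0 in every library.

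All corneas came from wild-type C57BL/6 mice aged 6 weeks. In the RNase III group the cornea was wounded and RNase III, an enzyme that cuts double-stranded RNA, was injected under the conjunctiva. In the wounded group the cornea was wounded without RNase III, and the labels do not say whether a control injection was given. The wound removed part of the limbus, the corneal epithelium and some stroma, and unwounded corneas were the third group. Each group had 2 libraries. Nothing in the labels says whether these were separate animals or pooled corneas, so the p-values measure only the spread between these samples, which may be technical.

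Histones are the proteins around which DNA is wound: H2A, H2B, H3 and H4 form the core of the nucleosome and H1 binds the linker between cores. The canonical genes lie in clusters, most have no intron, and their mRNAs are made mainly in S phase, when new DNA has to be packed. Such an mRNA ends just after a conserved stem-loop that is bound by the stem-loop binding protein SLBP, instead of in a poly(A) tail. Several canonical genes can also give polyadenylated mRNAs, which are known from cells that differentiate or have left the cell cycle. Of the variants, H3f3a, H3f3b and H2afz are made throughout the cell cycle from polyadenylated mRNAs. H3f3a and H3f3b encode the H3 variant deposited outside replication, and H2afz encodes H2A.Z, found at promoters. H2afx encodes H2A.X, which is phosphorylated at DNA breaks, and its annotated transcript carries both the stem-loop and a poly(A) signal. The corneal epithelium renews itself from dividing basal and limbal cells, and a wound is known to set off migration and division.

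The stem-loop was searched in the annotated transcripts (GENCODE M21, GRCm38) as the 16-base histone stem-loop consensus. For each member only the longest protein-coding transcript was used, where there was any. The stem-loop was found in 45 of the 65 canonical transcripts so chosen. With every protein-coding transcript of a gene searched, it was found in 53 of 21901 protein-coding genes in all (0.242%). It is shown with 5 bases on each side for members whose values are discussed below, and the capitals mark the stem-loop itself.
Hist1h2bg, chr13:23571843-23571858, plus strand: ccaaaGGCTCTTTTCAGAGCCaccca
Hist1h1c, chr13:23739512-23739527, plus strand: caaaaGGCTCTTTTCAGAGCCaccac
Hist1h3c, chr13:23745047-23745062, minus strand: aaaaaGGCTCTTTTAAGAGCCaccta
Hist1h4h, chr13:23531458-23531473, plus strand: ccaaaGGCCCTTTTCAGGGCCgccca
Hist1h4i, chr13:22040966-22040981, minus strand: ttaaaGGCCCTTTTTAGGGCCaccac
H2afx, chr9:44335240-44335255, plus strand: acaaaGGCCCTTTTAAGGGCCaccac
The form in Hist1h2bg and Hist1h1c was the most frequent, in 25 members. H2afx is the variant that carries the element: its annotated transcript goes on for 822 bases after the stem-loop and has a poly(A) signal, as does that of Hist1h1c, which goes on for 840 bases. The annotated Hist1h4h transcript ends 46 bases after its stem-loop and also has a poly(A) signal.

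Canonical H2A and H2B genes often lie head to head with a shared promoter. The members hold 11 such pairs of an H2A and an H2B gene, with 176 to 302 bases between their annotated starts, and in 5 pairs both genes passed the filter of the test. Bases between the starts, outside annotated exons, are shown for 3 of these pairs: in the first and second the members differ below in how they stood after wounding, and in the third they stood alike (RefSeq promoter table, GRCm38.p6, read 5′ to 3′ on the strand given). Capitals mark TATAAA, the TATA box, CCAAT, and the octamer ATTTGCAT, known from H2B promoters, each on either strand.
Hist1h2ae and Hist1h2bg, chr13:23571221-23571395, plus strand: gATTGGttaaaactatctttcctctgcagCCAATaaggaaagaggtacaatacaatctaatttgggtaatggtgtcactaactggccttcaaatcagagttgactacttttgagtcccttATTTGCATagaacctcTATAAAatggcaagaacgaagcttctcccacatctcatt
Hist2h2ac and Hist2h2be, chr3:96220881-96221118, minus strand: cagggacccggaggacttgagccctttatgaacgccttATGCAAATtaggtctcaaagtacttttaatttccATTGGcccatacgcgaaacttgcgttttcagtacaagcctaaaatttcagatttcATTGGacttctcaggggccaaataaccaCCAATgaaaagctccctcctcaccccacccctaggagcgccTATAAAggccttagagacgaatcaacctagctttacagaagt
Hist1h2ag and Hist1h2bj, chr13:22042948-22043197, plus strand: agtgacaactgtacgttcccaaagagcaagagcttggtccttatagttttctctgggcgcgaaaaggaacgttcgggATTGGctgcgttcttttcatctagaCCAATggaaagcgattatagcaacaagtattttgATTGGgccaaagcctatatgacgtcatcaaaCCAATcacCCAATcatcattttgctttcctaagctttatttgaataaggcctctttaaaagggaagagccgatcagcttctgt
The Hist1h2bg and Hist2h2be stretches each hold 1 octamer and 1 TATAAA, with 2 and 3 CCAAT. For Hist1h2ag and Hist1h2bj only 250 of the 270 bases between the starts are in the window shown, which holds 5 CCAAT and neither of the other motifs. Of the pairs not shown, the stretch of Hist1h2ac and Hist1h2bc holds 1 octamer, 1 TATAAA and 3 CCAAT. The 250 bases of Hist1h2ao and Hist1h2bq hold 3 CCAAT and neither of the other motifs. In the 250 bases before the RefSeq start of 57 canonical genes, CCAAT was present in 80.7%, against 34.5% of all 27025 promoters. TATAAA was present in 43.9% of the canonical promoters, against 13.0% of all, and the octamer in 19.3%, against 1.6% of all. By class, CCAAT was present in 15 of 15 H2A and 14 of 14 H2B promoters but in 3 of 12 H4 promoters, and the octamer in 6 of 15 H2A and 5 of 14 H2B promoters and in none of the H1, H3 and H4 promoters. Windows of head-to-head pairs overlap, so the same bases can count for an H2A and an H2B gene. The windows of Hist1h2bq and Hist1h2br have the same letters. The promoters counted are thus not independent. These matches are descriptions of the letters and not of bound sites.

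A library had values above 0 TPM for 16751 to 21033 genes, with the fewest in RNase III replicate 1, and the read depth is unknown because TPM does not keep it. Canonical genes above 0 TPM numbered 30 and 52 in the RNase III libraries, 54 and 52 in the wounded libraries and 47 and 47 in the unwounded libraries. The tissue label was met by markers of the corneal epithelium, whose 5 genes summed to 34456 and 25607 TPM with RNase III, 27856 and 39145 TPM after wounding and 41822 and 40004 TPM without a wound. In bulk tissue, fewer cells of a type and less RNA per cell cannot be told apart. RNase III replicate 2 stood apart in lens crystallin genes and wounded replicate 1 in neutrophil genes, and those values stand further below.

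Near-identical copies limit what a value of one gene means. All 13 H4 genes encode the same protein, as do 9 of the H2A genes, and H3 proteins came from sets of 7 and 4 genes. Of the 69 members, 33 had fewer than 50% of their 50-base windows to themselves among all annotated transcripts, and 3, Hist2h2aa2, Hist1h2bq and Hist2h3c1, had none, so reads from such genes could be split between copies in any proportion. The members lie mostly on chromosome 13 (53 genes), with 10 on chromosome 3, and 60 of the 65 canonical transcripts have a single exon. Hist1h2aj and Hist1h2al are annotated as pseudogenes despite their symbols.

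The variants held more TPM than the canonical genes. The labels do not say whether poly(A) RNA was selected, which bears on how much of an mRNA without a poly(A) tail is measured, so the sums compare what these libraries hold. The 4 variants summed to 2413 and 2174 TPM with RNase III, 1885 and 2738 TPM after wounding and 3209 and 3054 TPM without a wound. The 65 canonical genes summed to 423 and 288 TPM with RNase III, 343 and 398 TPM after wounding, and 471 and 443 TPM without a wound. All 4 of the other libraries were thus below both unwounded libraries in the canonical sum, with the groups of RNase III and wounded corneas overlapping. The sum rested on few genes: Hist1h2bc, Hist2h2aa1, Hist1h1c, Hist2h2aa2 and Hist1h4i held 68.7% to 84.3% of it in a library.

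For the tests, genes that reached 1 TPM in 2 or more libraries were kept and log2(TPM + 1) was compared in limma over all 14748 such genes, with a call at adjusted p under 0.05. A log2 difference on this scale understates the change of low genes. Of the 69 members, 41 passed the filter (37 canonical genes and the 4 variants) and 28 did not. Hist1h2ab passed through its RNase III values alone, and Hist1h2ac, Hist1h2ao and Hist1h4j through their unwounded values alone. Differences of these genes that involve that group were set in part by the filter. The medians and counts of signs below keep these genes.

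RNase III against wounded corneas asks what the enzyme changed in a wounded cornea. None of the 41 members was called in either direction by limma, where the background was 0% of all genes. At an unadjusted p under 0.05 there were 5 members and 1838 genes in all, and the smallest adjusted p was 0.124, that of Hist2h2aa2. The median log2 difference was -0.23 over the 37 canonical genes tested, against 0.09 over all genes.

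Wounded against unwounded corneas asks what the wound changed. H2afx rose, and H3f3a and Hist1h2bg, an H2B gene, fell. That is 1 member of 41 higher and 2 lower, where 6.12% of all genes were called higher and 9.83% lower (15.9% in either direction), so the members show no excess of calls over the background. The median log2 difference was -0.06 over the canonical genes, against -0.26 over all genes. A median-of-ratios scaling moved the median of all genes to -0.003, and with it 1 member, H2afx, was called higher and none lower.

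RNase III against unwounded corneas gave 1 member higher, H2afx, and 4 lower, H3f3a, Hist1h2bg and the H2A genes Hist2h2aa2 and Hist1h2ao, where 4.72% of all genes were called higher and 4.58% lower (9.30% in either direction). The median was -0.17 over the canonical genes, against -0.16 over all genes. Hist1h2ao passed the filter through its high unwounded values alone, so its call is no support for a lower level with RNase III, and 3 lower calls remain without it. This comparison shares its unwounded libraries with the wound comparison, so the 2 sets of values are not independent. With no filter on low values none of the members named here was called in either comparison with unwounded corneas. When near-identical copies were summed before the test, 2 members were lower instead of 4: the calls on both H2A genes were lost, as shown with those genes below.

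**Figure D1:**
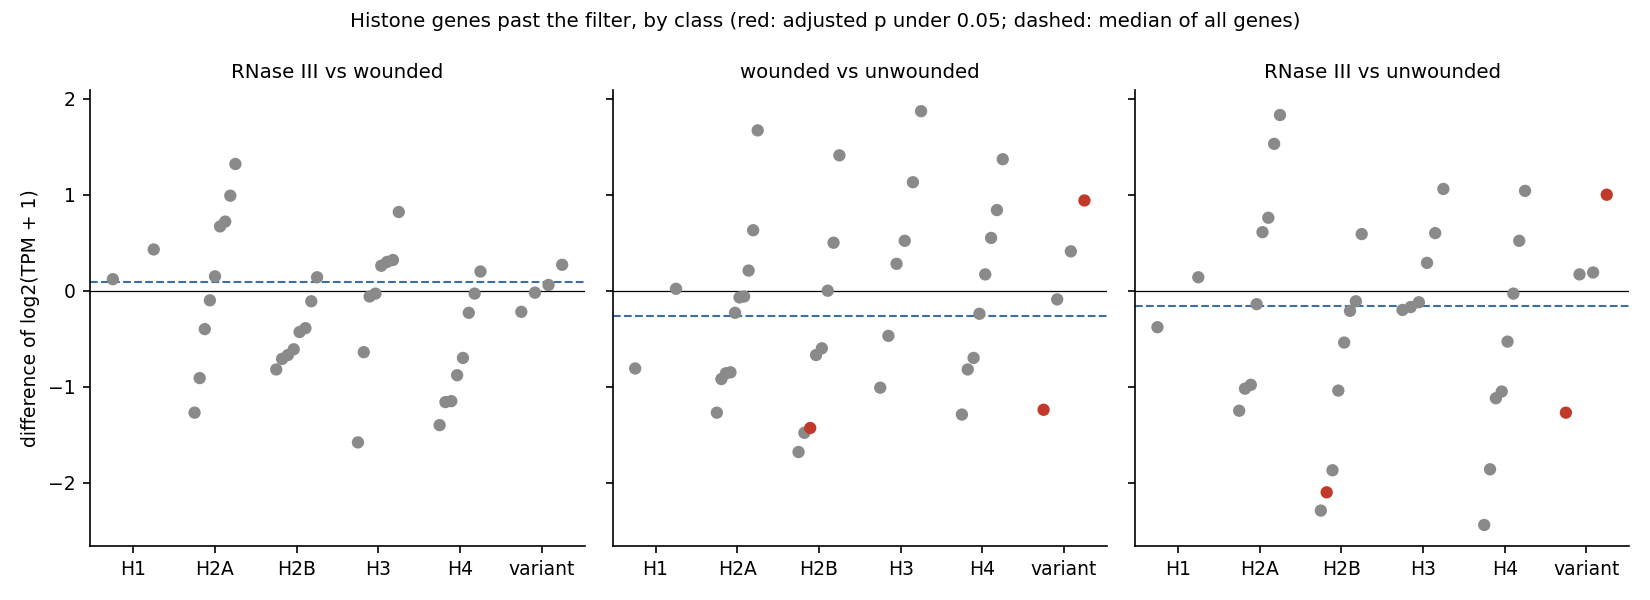
Difference of log2(TPM + 1) of the histone genes past the filter, by class, for RNase III against wounded, wounded against unwounded and RNase III against unwounded corneas; each point is a gene, red points were called by limma at adjusted p under 0.05, and the dashed line is the median of all 14748 genes. Genes with a group at 0 TPM in every library are not drawn, which leaves 39, 38 and 36 genes. Each class spreads to both sides of 0 after wounding, and called points are few.

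H3f3a and H3f3b encode the same H3 protein of 136 amino acids from different chromosomes, and they differed in how they stood after wounding. H3f3a (ENSMUSG00000060743, chromosome 1, 180800832 to 180813943, minus strand) had 865 and 668 TPM with RNase III, 637 and 935 TPM after wounding and 1895 and 1765 TPM without a wound. The RNase III and wounded libraries overlapped, and all 4 were below both unwounded libraries. H3f3a averaged 786 ± 211 TPM in wounded and 1830.1 ± 91.9 TPM in unwounded corneas (SD, n = 2 each).

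On the log2(TPM + 1) scale H3f3a fell by 1.24 after wounding (SE 0.25, limma adjusted p = 0.0299). It was also lower with RNase III than without a wound, at -1.27 (SE 0.25, limma adjusted p = 0.0364). RNase III against wounded corneas gave -0.02 (SE 0.25, adjusted p = 0.98). The wound call was lost without wounded replicate 1 (-0.97, limma adjusted p = 0.131), without unwounded replicate 1 (-1.19, 0.141) or 2 (-1.29, 0.173), and with median-of-ratios scaling (-0.95, 0.0681). The call of RNase III against unwounded corneas was lost without any library of either group, at differences between -1.45 and -1.08 and adjusted p between 0.0557 and 0.195, with the scaling (-1.10, 0.0544) and without a mean-variance trend (-1.27, 0.0527).

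H3f3b (ENSMUSG00000016559, chromosome 11, 116021912 to 116027962, minus strand) had 683 and 584 TPM with RNase III, 678 and 796 TPM after wounding and 536 and 569 TPM without a wound. Its 4 values of wounded eyes were above both unwounded values, but the gene was not called: the log2 difference was 0.41 after wounding (SE 0.19, limma adjusted p = 0.167) and 0.19 with RNase III set against unwounded corneas (SE 0.19, adjusted p = 0.495). The ratio of H3f3a to H3f3b was thus 1.27 and 1.14 with RNase III, 0.941 and 1.17 after wounding and 3.54 and 3.10 without a wound.

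The balance of these genes is a value within a library and does not depend on its scaling. H3f3a made up 55.9% and 53.4% of their joint TPM with RNase III, 48.5% and 54.0% after wounding and 78.0% and 75.6% without a wound. The log2 ratio of H3f3a to H3f3b differed by -1.66 between wounded and unwounded corneas and by -1.46 between RNase III and unwounded corneas, each with an exact two-sided permutation p of 0.333, the smallest that 2 against 2 libraries can give. Between RNase III and wounded corneas it differed by 0.20 (exact permutation p = 0.667). Their joint TPM was 1549 and 1252 with RNase III, 1315 and 1731 after wounding and 2431 and 2334 without a wound, so unwounded corneas were also highest in the sum. Most of the sequence was their own: 85.1% of the 50-base windows of H3f3a and 91.6% of those of H3f3b were in no other gene.

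**Figure D2:**
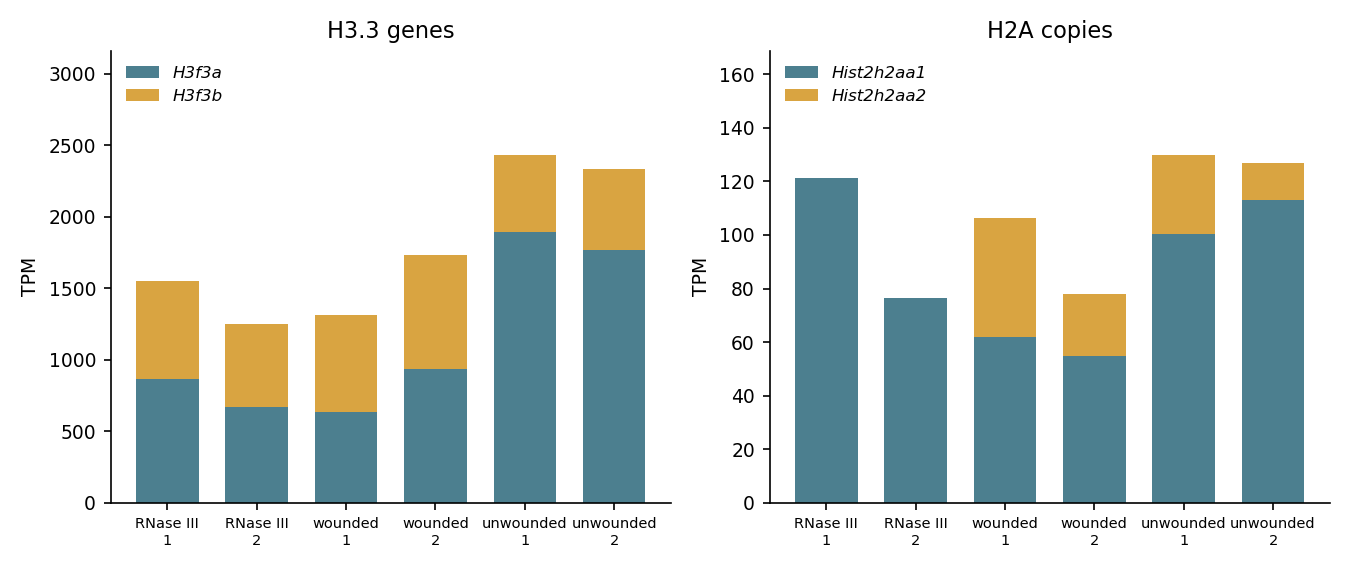
TPM by library, stacked from 0, of H3f3a and H3f3b (left) and of the near-identical copies Hist2h2aa1 and Hist2h2aa2 (right), for RNase III, wounded and unwounded corneas, replicates 1 and 2. H3f3a held 75.6% or more of the left bars without a wound and 55.9% or less in the other 4, and Hist2h2aa2 was listed at 0 in both RNase III libraries.

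H2afx (ENSMUSG00000049932, chromosome 9, 44334694 to 44336077, plus strand) moved the other way. It had 107 and 119 TPM with RNase III, 95.0 and 123 TPM after wounding and 50.4 and 62.1 TPM without a wound. All 4 libraries of wounded eyes were above both unwounded libraries, and the RNase III values lay within the wounded range. H2afx rose by 0.94 after wounding (SE 0.21, limma adjusted p = 0.0349) and was higher by 1.0 with RNase III than without a wound (SE 0.21, limma adjusted p = 0.0397). RNase III against wounded corneas differed by 0.06 (SE 0.21, adjusted p = 0.931).

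Both H2afx calls held under median-of-ratios scaling, at 1.23 (limma adjusted p = 0.0159) after wounding and 1.16 (0.0213) for RNase III against unwounded corneas. The wound call was lost without wounded replicate 1 (1.13, limma adjusted p = 0.0925) or 2 (0.75, 0.0833), without unwounded replicate 1 (0.79, 0.205) or 2 (1.09, 0.177), and without a mean-variance trend (0.0593). The other call was lost without RNase III replicate 1 (1.07, limma adjusted p = 0.0686) or 2 (0.92, 0.0798), without unwounded replicate 1 (0.85, 0.22) or 2 (1.14, 0.193), and without the trend (0.0631).

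H2afz (ENSMUSG00000037894, chromosome 3, 137864487 to 137866922, plus strand) had 758 and 804 TPM with RNase III, 476 and 883 TPM after wounding and 727 and 658 TPM without a wound. The wounded libraries lay on either side of all others, and the differences were 0.27 for RNase III against wounded (SE 0.30, limma adjusted p = 0.731), -0.09 for wounded against unwounded (SE 0.30, adjusted p = 0.841) and 0.17 with RNase III set against unwounded corneas (SE 0.30, adjusted p = 0.709).

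**Figure D3:**
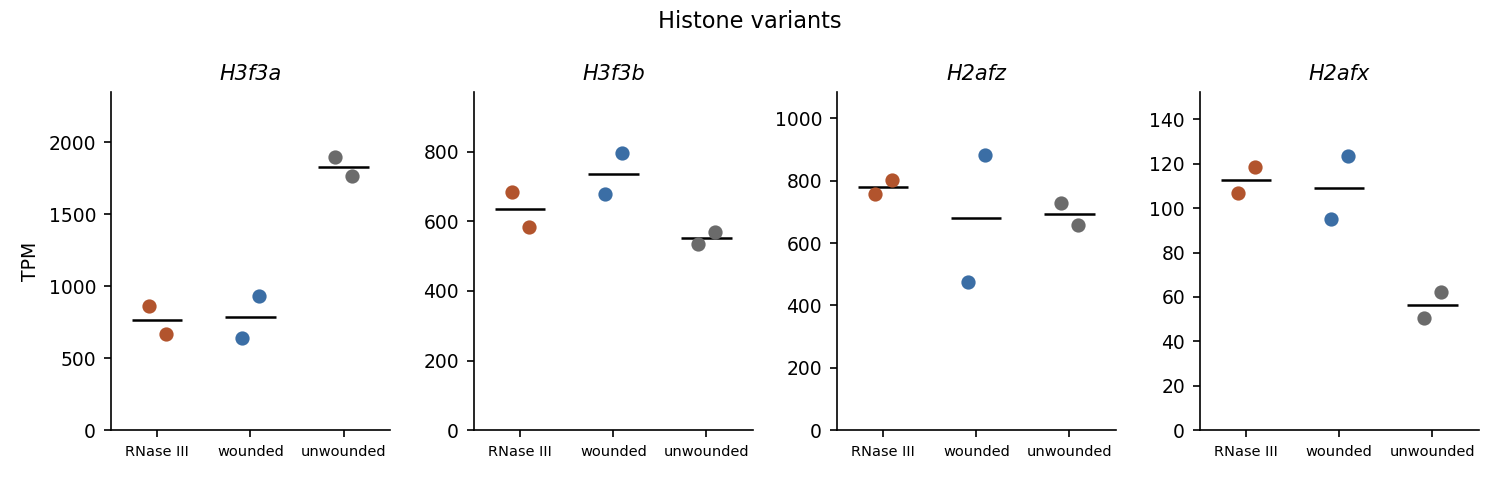
TPM of the 4 variants by library in RNase III, wounded and unwounded corneas; points are libraries, bars are means of 2, and each axis starts at 0. H3f3a is highest and H2afx lowest in both unwounded libraries, while H3f3b and H2afz show smaller differences between groups.

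Among the H2A genes the level was set by Hist2h2aa1 and Hist2h2aa2, neighbours on chromosome 3 that encode the same protein. Hist2h2aa1 (96245497 to 96246082, plus strand) had 121 and 76.6 TPM with RNase III, 61.9 and 54.7 TPM after wounding and 100.5 and 113 TPM without a wound. Hist2h2aa2 (96239749 to 96240276, minus strand) was listed at 0 in both RNase III libraries, against 44.3 and 23.2 TPM after wounding and 29.4 and 14.0 TPM without a wound. Hist2h2aa2 was called lower with RNase III than without a wound (limma adjusted p = 0.00943), and against wounded corneas it was called with a pseudocount of 0.1 (adjusted p = 0.0249) but not with 1 (adjusted p = 0.124).

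The sum of both copies gives a different picture. Hist2h2aa2 has no 50-base window of its own, and 89.4% of the windows of Hist2h2aa1 also occur in the gene Gm20634, which spans both and stood between 0.78 and 6.66 TPM. Together the copies had 121 and 76.6 TPM with RNase III, 106 and 77.9 TPM after wounding and 130 and 127 TPM without a wound, so the RNase III and wounded groups overlapped. The summed values differed by 0.08 between RNase III and wounded corneas (SE 0.27, limma adjusted p = 0.918), by -0.49 between wounded and unwounded (SE 0.27, adjusted p = 0.227) and by -0.41 with RNase III relative to unwounded corneas (SE 0.27, adjusted p = 0.317). This sum was chosen after seeing the values.

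The same held for Hist1h2ao and Hist1h2ap, H2A copies on chromosome 13 that share over 93% of their windows. Hist1h2ao was listed at 0 in both RNase III libraries, had 0.55 and 0 TPM after wounding and 1.81 and 2.21 TPM without a wound. It was called lower with RNase III than without a wound (limma adjusted p = 0.0442), but it passed the filter only because its unwounded values are high, so the call supports no difference. Hist1h2ap had 0 and 3.06 TPM with RNase III and 4.87 and 3.02 TPM after wounding and was listed at 0 in both unwounded libraries. Summed, they had 0 and 3.06 TPM with RNase III, 5.42 and 3.02 TPM after wounding and 1.81 and 2.21 TPM without a wound, and RNase III against unwounded corneas then differed by -0.58 (SE 0.66, limma adjusted p = 0.562).

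Hist3h2a, the third H2A gene by level, lies on chromosome 11 (58954685 to 58956830, plus strand) and its annotated transcript runs 1643 bases past the stem-loop to a poly(A) signal. It had 5.19 and 6.55 TPM with RNase III, 6.23 and 10.2 TPM after wounding and 13.4 and 17.3 TPM without a wound, with all 4 values of wounded eyes below both unwounded ones. It was not called, at -1.25 for RNase III against unwounded corneas (SE 0.32, limma adjusted p = 0.0578) and -0.85 for wounded against unwounded (SE 0.32, adjusted p = 0.111).

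The class spread in both directions. Hist1h2ag had 11.04 and 3.0 TPM with RNase III, 6.45 and 4.22 TPM after wounding and 1.40 and 0.59 TPM without a wound, all 4 values of wounded eyes being above both unwounded ones. It was not called either, at 1.67 for wounded against unwounded corneas (SE 0.56, limma adjusted p = 0.0849). Hist1h2ab had 1.53 and 3.40 TPM with RNase III against 0 and 0.79 TPM after wounding (log2 difference 1.32, SE 0.46, adjusted p = 0.358), the highest H2A value in that comparison, and 0.34 and 0 TPM without a wound. Hist1h2ab passed the filter through its RNase III values alone, so its place supports no higher level with RNase III.

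Among the H2B genes, Hist1h2bc alone reached high levels. It lies on chromosome 13 (23684199 to 23692908, plus strand). The longest coding transcript, the one used here, has 2 exons and no stem-loop. It had 106 and 75.3 TPM with RNase III, 56.7 and 116 TPM after wounding and 141 and 119 TPM without a wound. All 4 values of wounded eyes were below both unwounded values, with differences of -0.67 after wounding (SE 0.35, limma adjusted p = 0.214) and -0.54 against unwounded corneas with RNase III (SE 0.35, adjusted p = 0.32). The difference of 0.14 from wounded corneas (SE 0.35, adjusted p = 0.896) was the highest among H2B genes.

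Hist1h2bg was the canonical gene called in both comparisons with unwounded corneas. It encodes the same H2B protein as Hist1h2bc and Hist1h2be, lies on chromosome 13 (ENSMUSG00000058385, 23571396 to 23572013, plus strand), and 50.3% of its windows were its own, while 45.0% occur in Hist1h2bc. It had 0.93 and 0.47 TPM with RNase III, 1.25 and 2.20 TPM after wounding and 6.71 and 5.78 TPM without a wound, so both RNase III values were below all others and both unwounded values above them. It fell by 1.43 after wounding (SE 0.34, limma adjusted p = 0.0405) and was lower with RNase III than without a wound, at -2.10 (SE 0.34, limma adjusted p = 0.0257).

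The Hist1h2bg difference with RNase III relative to wounded corneas was -0.67 (SE 0.34, limma adjusted p = 0.474). The wound call of Hist1h2bg was lost without wounded replicate 1 (-1.18, limma adjusted p = 0.199) or 2 (-1.68, 0.0589), without unwounded replicate 1 (-1.34, 0.205) or 2 (-1.52, 0.22), with a pseudocount of 0.1 (-1.84, 0.0712) and with scaling (-1.21, 0.0508). Against unwounded corneas, the RNase III call was lost without RNase III replicate 2 (-1.91, limma adjusted p = 0.0522) and without unwounded replicate 1 (-2.01, 0.136) or 2 (-2.19, 0.168).

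Hist2h2be and Hist3h2ba lay below the unwounded values as well. Hist2h2be had 0.44 and 2.22 TPM with RNase III, 1.31 and 2.43 TPM after wounding and 6.59 and 7.12 TPM without a wound, and all of its 50-base windows are its own. Its differences were -1.87 for RNase III against unwounded (SE 0.46, limma adjusted p = 0.0524) and -1.48 for wounded against unwounded corneas (SE 0.46, adjusted p = 0.0702), so it was not called. Hist3h2ba had 0 and 1.71 TPM with RNase III, 0.57 and 3.0 TPM after wounding and 3.41 and 13.7 TPM without a wound, with unwounded replicates far apart and -1.68 after wounding (SE 0.78, adjusted p = 0.168), the lowest of the class.

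At the other end Hist1h2bj had 0.52 and 2.39 TPM with RNase III, 3.3 and 2.75 TPM after wounding and 1.27 and 0 TPM without a wound. Its difference was 1.41 after wounding (SE 0.55, limma adjusted p = 0.117) and -0.82 for RNase III against wounded corneas (SE 0.55, adjusted p = 0.56), the lowest H2B value in that comparison. Over the class, 2 of 8 H2B genes tested were positive and 6 negative after wounding (median -0.64), and 1 was positive and 7 negative for RNase III against unwounded corneas (median -0.79).

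Within the head-to-head pairs, the differences after wounding were close in some pairs and apart in others. In Hist1h2ae and Hist1h2bg the differences after wounding were -0.07 for the H2A gene and -1.43 for the H2B gene. In Hist2h2ac and Hist2h2be they were -0.06 and -1.48, in Hist1h2ac and Hist1h2bc -0.92 and -0.67, in Hist1h2ag and Hist1h2bj 1.67 and 1.41, and in Hist1h2ao and Hist1h2bq -1.27 and 0.0. Of these 10 genes only Hist1h2bg was called after wounding, and the difference within a pair was not tested. Hist1h2ac and Hist1h2ao passed the filter through their unwounded values alone, so their negative differences support no fall. The stretches shown above for Hist1h2bg and Hist2h2be hold an octamer and a TATAAA, and the 250 bases shown for Hist1h2ag and Hist1h2bj neither. Of the pairs not shown, Hist1h2ac and Hist1h2bc, which stood alike, hold both motifs. Hist1h2ao and Hist1h2bq, which stood apart, hold neither in 250 bases. Over these 5 pairs the motifs thus did not sort with the differences, and this is a description of letters alone.

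Among the H1 genes of the naming rule, RNA came almost wholly from Hist1h1c, which encodes H1.2 and lies on chromosome 13 (23738808 to 23740367, plus strand). It had 113 and 48.9 TPM with RNase III, 53.3 and 88.0 TPM after wounding and 76.3 and 59.4 TPM without a wound. The replicates of each wounded group differed more than the groups did, and the differences were 0.12 for RNase III against wounded (SE 0.43, limma adjusted p = 0.928), 0.02 for wounded against unwounded (SE 0.43, adjusted p = 0.972) and 0.14 with RNase III set against unwounded corneas (SE 0.43, adjusted p = 0.835).

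Hist1h1e had 2.25 and 1.21 TPM with RNase III, 1.03 and 0.94 TPM after wounding and 2.38 and 2.58 TPM without a wound (-0.81 after wounding, SE 0.33, limma adjusted p = 0.135, and 0.43 with RNase III against wounded corneas, SE 0.33, 0.617). Hist1h1a, Hist1h1b, Hist1h1d and the testis-specific gene Hist1h1t did not pass the filter. Hist1h1b was listed at 0 in both RNase III libraries, against 0.68 and 1.29 TPM after wounding and 0.92 and 0.44 TPM without a wound.

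**Figure D4:**
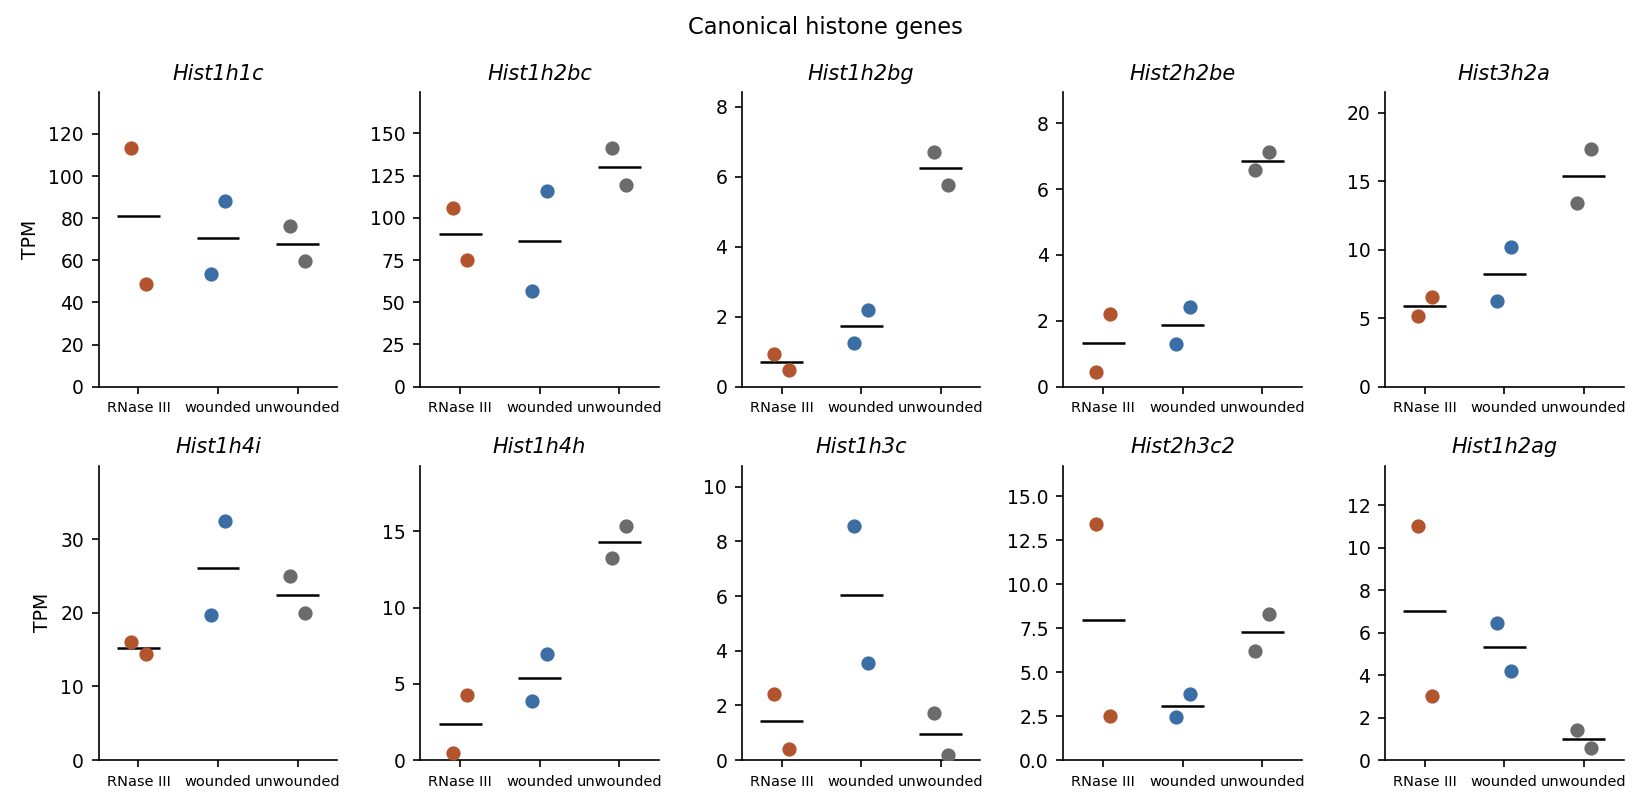
TPM of 10 canonical histone genes by library in RNase III, wounded and unwounded corneas; points are libraries, bars are means of 2, axes start at 0 and differ between genes. Hist1h2bg, Hist2h2be, Hist3h2a and Hist1h4h lie highest in both unwounded libraries, Hist1h2ag lies lowest there, and Hist1h1c overlaps between all groups.

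Canonical H3 genes were low, with sums of 24.6 and 12.04 TPM with RNase III, 21.7 and 17.3 TPM after wounding and 11.9 and 15.6 TPM without a wound. Hist2h3c2 led the class at 13.4 and 2.53 TPM with RNase III, 2.45 and 3.76 TPM after wounding and 6.19 and 8.32 TPM without a wound. The RNase III libraries were thus far apart, 1 above all others and 1 between the wounded values, and 63.5% of its windows occur in Gm20634. It was the lowest H3 gene after wounding, at -1.01 (SE 0.64, limma adjusted p = 0.286), and the highest for RNase III against wounded corneas, at 0.82 (SE 0.64, adjusted p = 0.623).

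Hist1h3c was the reverse. It had 2.43 and 0.41 TPM with RNase III, 8.56 and 3.55 TPM after wounding and 1.72 and 0.19 TPM without a wound, so both wounded libraries were above all 4 others. The differences, 1.87 for wounded against unwounded (SE 0.64, limma adjusted p = 0.0867) and -1.58 for RNase III against wounded corneas (SE 0.64, adjusted p = 0.385), were not called. Hist1h3b, the third H3 gene by level, had 3.89 and 1.06 TPM with RNase III, 3.32 and 0.50 TPM after wounding and 1.04 and 1.15 TPM without a wound. Hist1h3h and Hist2h3c1 were listed at 0 in both unwounded libraries and reached 1.31 and 2.23 TPM at most elsewhere.

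The H4 genes, all encoding the same protein of 103 amino acids, summed to 26.9 and 42.5 TPM with RNase III, 62.7 and 56.2 TPM after wounding and 61.1 and 58.6 TPM without a wound. Both RNase III sums were below the other 4. Hist1h4i had 16.0 and 14.4 TPM with RNase III, 19.7 and 32.4 TPM after wounding and 24.9 and 19.9 TPM without a wound, again with both RNase III values lowest. It differed by -0.70 between RNase III and wounded corneas (SE 0.29, limma adjusted p = 0.399) and by 0.17 between wounded and unwounded corneas (SE 0.29, adjusted p = 0.688).

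Hist1h4h had 0.50 and 4.24 TPM with RNase III, 3.87 and 6.93 TPM after wounding and 13.2 and 15.4 TPM without a wound. All 4 values of wounded eyes were below both unwounded values, but the gene was not called, at -2.44 for RNase III against unwounded corneas (SE 0.60, limma adjusted p = 0.0521) and -1.29 for wounded against unwounded (SE 0.60, adjusted p = 0.167), the lowest H4 value after wounding. With median-of-ratios scaling, Hist1h4h, Hist2h2be and Hist3h2a were called lower with RNase III than without a wound.

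Single H4 copies swung between libraries. Hist1h4m was at 0 and 11.9 TPM with RNase III, 7.28 and 4.25 TPM after wounding and 12.2 and 3.63 TPM without a wound, and shares 89.8% of its windows with Hist1h4n. The sum of Hist1h4m and Hist1h4n was steadier, at 7.64 and 14.4 TPM with RNase III, 12.3 and 8.55 TPM after wounding and 13.9 and 8.11 TPM without a wound. Hist1h4b had 0 and 2.17 TPM with RNase III, 8.21 and 1.40 TPM after wounding and 0.52 and 1.18 TPM without a wound, with the lowest H4 difference for RNase III against wounded (-1.40, SE 0.78, limma adjusted p = 0.496) and the highest for wounded against unwounded corneas (1.37, SE 0.78, adjusted p = 0.242). Hist1h4a had the highest H4 difference for RNase III against wounded corneas, 0.20 (SE 0.36, adjusted p = 0.837). With RNase III set against wounded corneas, 1 of the 8 H4 genes tested was positive and 7 negative (median -0.79), none of them called.

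The other 24 members below the filter were Hist1h2ad, Hist1h2af, Hist1h2ah, Hist1h2aj, Hist1h2ak, Hist1h2al and Hist1h2an among H2A genes, Hist1h2bf, Hist1h2bh, Hist1h2bk, Hist1h2bl, Hist1h2bm, Hist1h2bp, Hist1h2br and Hist2h2bb among H2B genes, Hist1h3e, Hist1h3f, Hist1h3g and Hist2h3b among H3 genes, and Hist1h4c, Hist1h4d, Hist1h4f, Hist2h4 and Hist4h4 among H4 genes. The highest value of any was 7.42 TPM, Hist1h4f in wounded replicate 1, and it was at 0.65 TPM or 0 in the other 5 libraries. Hist1h2af was listed at 0 in all 4 libraries of wounded eyes, against 0.91 and 1.31 TPM without a wound. It was called lower after wounding when no filter was used, but it entered that test through its unwounded values alone. The call thus supports no difference, and only 20.3% of the gene's 50-base windows were its own.

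The canonical genes were also grouped by the annotated 3′ end of the transcript used for each. Other transcripts of a gene, which may end elsewhere, were not used for this grouping. In 22 the annotation ends within 100 bases of the stem-loop, in 23 it goes on for more than 100 bases, and in 20 it holds no stem-loop. Some of the 20 are annotated no further than their coding sequence, so no stem-loop could be found in them. Examples are Hist1h2ai and Hist1h4k, with 393 and 312 bases for proteins of 130 and 103 amino acids. The transcripts that end near the stem-loop summed to 152 and 115 TPM with RNase III, 171 and 115 TPM after wounding and 167 and 160 TPM without a wound. Those that go on for over 100 bases summed to 159 and 81.1 TPM with RNase III, 95.1 and 151 TPM after wounding and 145 and 139 TPM without a wound.

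After wounding, the members tested of the near-end group had a median log2 difference of 0.51 (11 positive and 5 negative), those that go on had -0.71 (4 positive and 10 negative), and those with no stem-loop -0.23 (2 positive and 5 negative), against -0.26 for all genes. Without members that had a group at 0, these medians were 0.50, -0.81 and -0.45. Hist1h2ac and Hist1h4j, which go on, and Hist1h2ao, which ends near the stem-loop, passed the filter through their unwounded values alone. Their negative signs against unwounded corneas thus support no difference. Hist1h2ab and Hist1h2ap, which end near the stem-loop, reached 1 TPM only in libraries of wounded eyes. So did Hist2h3c1 and Hist1h4a, which go on, and Hist1h3h and Hist1h3i, with no stem-loop. The positive signs of these genes against unwounded corneas support no difference either. The medians and counts keep all of them. For RNase III against unwounded corneas the medians were 0.13, -0.75 and -0.11 in the same order. Between RNase III and wounded corneas they were -0.67 (5 positive and 11 negative), -0.17 and -0.06, against 0.09 for all genes, so there the near-end group was the lowest. The difference between the groups of transcripts was not tested, and their members share sequence. As a measure of RNA without a poly(A) tail, 12 such RNAs, among them Rn7sk, summed to 1412 and 158 TPM with RNase III, 1846 and 157 TPM after wounding and 213 and 329 TPM without a wound. The high libraries were thus RNase III replicate 1 and wounded replicate 1, 1 of each group. Their part in the histone values was not tested.

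Genes that make and place histones were measured in the same libraries. Slbp, whose product binds the stem-loop, differed by 0.47 between RNase III and wounded (SE 0.26, limma adjusted p = 0.496), by -0.01 between wounded and unwounded (SE 0.26, adjusted p = 0.979) and by 0.46 with RNase III relative to unwounded corneas (SE 0.26, adjusted p = 0.252). Npat, a transcription factor of the histone clusters, differed by 0.47, -0.71 and -0.24 in the same order and was not called. Of 19 genes tested for histone mRNA processing and transcription, 2 rose after wounding, where 6.12% of all genes rose. These were Srrt, by 0.81 (SE 0.20, limma adjusted p = 0.0425), and Snrpb, by 0.72 (SE 0.17, limma adjusted p = 0.0398). Srrt was also higher with RNase III than without a wound, by 1.07 (SE 0.20, limma adjusted p = 0.0325). In both comparisons with unwounded corneas, none of the list was called without the trend or when any library of the groups compared was left out, and 5 were called higher with median-of-ratios scaling.

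Of 20 histone chaperones and assembly factors, 4 rose and 1 fell after wounding, where 6.12% of all genes rose and 9.83% fell. Chaf1b, a subunit of the chromatin assembly factor CAF-1, averaged 14.6 TPM in wounded and 4.17 TPM in unwounded corneas (1.54, SE 0.33, limma adjusted p = 0.0322). Ipo4, an importin that carries histones, averaged 46.9 TPM in wounded and 16.9 TPM in unwounded corneas (1.39, SE 0.29, limma adjusted p = 0.03). Nap1l1, an H2A and H2B chaperone, rose by 0.93 (SE 0.25, limma adjusted p = 0.0499), and Ssrp1, a subunit of FACT, by 0.90 (SE 0.23, limma adjusted p = 0.0453). Atrx, which with Daxx deposits the H3 variant at repeats, fell by 1.49 (SE 0.28, limma adjusted p = 0.0249), to 8.80 TPM in wounded against 26.9 TPM in unwounded corneas. With RNase III, Chaf1b (2.25, limma adjusted p = 0.0219), Ipo4 (1.44, 0.0356) and Nap1l1 (1.07, 0.0464) were called higher than without a wound, where 4.72% of all genes were. None of the list was called against wounded corneas, where its most abundant members Nap1l1 and Rbbp7 differed by 0.15 (SE 0.25) and 0.20 (SE 0.20). After wounding, 0 of the list were called without wounded replicate 1 or either unwounded replicate, and 1 higher and 1 lower without wounded replicate 2. With RNase III set against unwounded corneas, 2 of the list were called higher without RNase III replicate 1, and 0 without RNase III replicate 2 or either unwounded replicate. Without the trend 2 were higher in each of these comparisons, and with median-of-ratios scaling 6 after wounding and 9 with RNase III. Without a filter on low values none of the list was called in any comparison.

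Canonical histone RNA normally accompanies S phase, so 24 S-phase and proliferation genes were set beside it. Of these, 1 rose after wounding, where 6.12% of all genes rose. It was Mcm3, a subunit of the replicative helicase (1.89, SE 0.35, limma adjusted p = 0.0234). After wounding 22 of 24 differences were positive, with a median of 0.76, against 5471 of all 14748 genes positive. For RNase III against unwounded corneas 8 were called higher, where 4.72% of all genes were. All 24 differences were positive, with a median of 1.35, against 6124 of all 14748 genes positive. Mcm3 (2.23, limma adjusted p = 0.0248), Mcm5 (1.91, 0.0419), Rrm2 (1.87, 0.0248) and Uhrf1 (1.86, 0.0436) were the largest. For RNase III against wounded corneas none was called, and 23 of 24 differences were positive (median 0.64), against 8538 of all 14748 genes. Medians over the canonical histone genes were -0.23 for RNase III against wounded, -0.06 for wounded against unwounded and -0.17 for RNase III against unwounded corneas. The 8 calls became 1 without RNase III replicate 1 and 0 without RNase III replicate 2 or either unwounded replicate, 14 without either wounded replicate, 3 without the trend and 16 with median-of-ratios scaling, which gave 11 after wounding. The wound call of Mcm3 was lost without a filter on low values and without either unwounded replicate. Without the filter none of the list was called in any comparison. The difference between the lists was not tested.

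**Figure D5:**
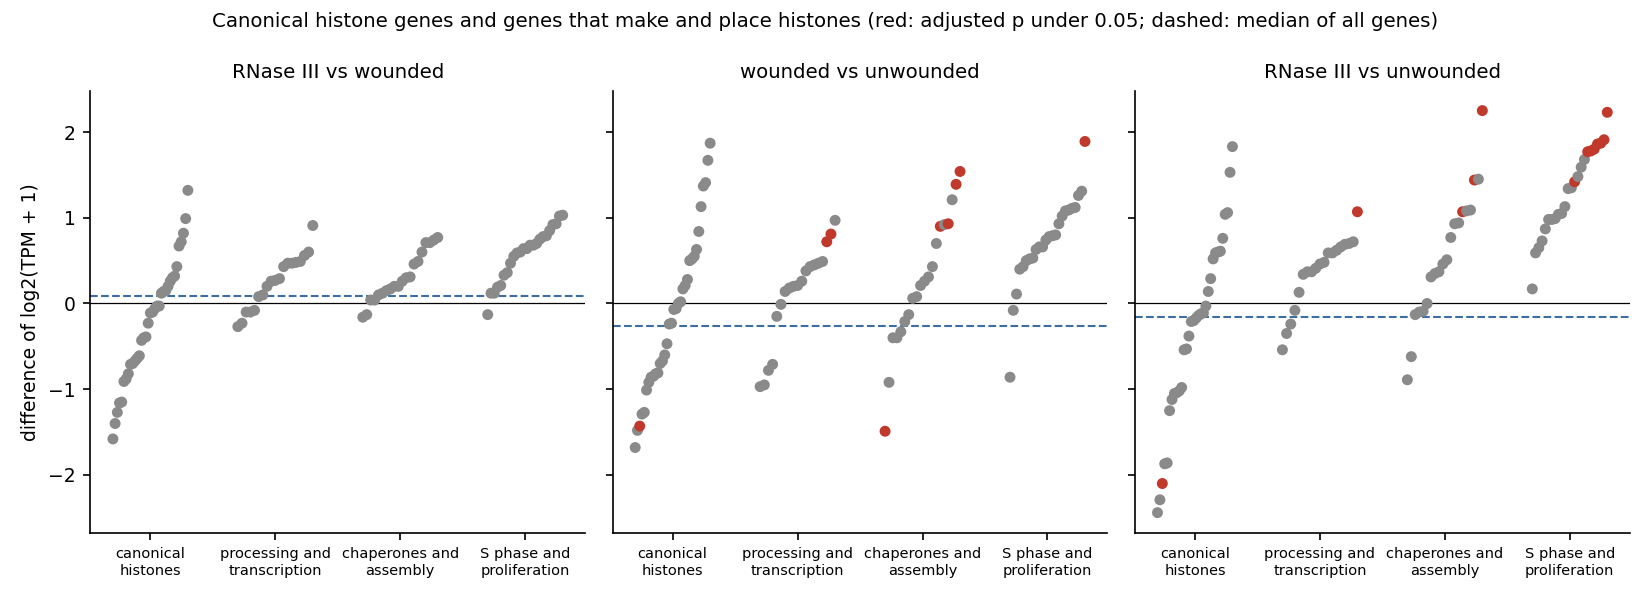
Difference of log2(TPM + 1) of the canonical histone genes and of genes for histone mRNA processing and transcription, histone chaperones and assembly, and S phase and proliferation, for RNase III against wounded, wounded against unwounded and RNase III against unwounded corneas; each point is a gene, ordered by value within its list, red points were called at adjusted p under 0.05, and the dashed line is the median of all genes. The canonical genes spread on both sides of 0 in each comparison, and all 24 S-phase genes lie above 0 for RNase III against unwounded corneas.

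Other cells in the samples differed between libraries. Neutrophil markers, of which Mpo and Elane were listed at 0 throughout, summed to 1201 and 1346 TPM with RNase III, 8481 and 427 TPM after wounding and 64.9 and 45.1 TPM without a wound, and 3 of 5 tested rose after wounding. Monocyte and macrophage markers summed to 232 and 476 TPM with RNase III, 1245 and 553 TPM after wounding and 142 and 78.9 TPM without a wound, and 4 of 7 rose after wounding. Stromal keratocyte markers summed to 919 and 1543 TPM with RNase III, 3309 and 3708 TPM after wounding and 6512 and 5053 TPM without a wound, and 2 of 5 fell after wounding. Lens markers reached 3052 TPM in RNase III replicate 2, against 203 to 618 TPM in the other 5 libraries. Of the remaining lists, 1 of 5 epithelial markers fell after wounding, and 1 of 5 lens and 2 of 3 platelet markers rose. Over all genes, 6.12% were called higher after wounding and 9.83% lower. Lymphocyte markers summed to 1.27 TPM at most. Libraries of wounded eyes thus differed from unwounded ones in H3f3a, Hist1h2bg and H2afx and also in neutrophil, monocyte and macrophage, and keratocyte sums. The part of these marker sums in the histone values was not tested.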

How the data were processed

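The titles of the 6 corneal samples gave the groups, 2 samples in each, and the replicate numbers. Expression was deposited by the authors as TPM, in 1 table with 54446 Ensembl gene rows. RNA was purified on kit columns and made into Illumina libraries, per the labels' protocols. Per the submitters' processing notes STAR, RSEM, DESeq2 and mm10 were used, with no role or version, and how reads shared by copies were assigned is not given in the sources used here. Because TPM does not retain read depth, no counting interval can be given, and each value depends on the rest of its library. Symbols matched 54409 identifiers and not 37.

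Values were tested as log2(TPM + 1) in limma 3.58.1 under R 4.3.3, for the 14748 genes that reached 1 TPM in 2 or more libraries. The fit was a group-means model over all 6 libraries with a mean-variance trend, 3 residual and 3.6 prior degrees of freedom and two-sided tests. Benjamini-Hochberg adjustment was made per comparison over all genes tested, with a call at adjusted p under 0.05. The steps were tested on simulated data. Stem-loops, shared 50-base windows and coordinates came from GENCODE M21, and promoters from the RefSeq table. Copies that share at least 75% of windows in both directions were summed in an alternative added after seeing the data. Besides, results were recomputed without a filter, without the trend, with a pseudocount of 0.1, with median-of-ratios scaling, with the replicate number as a block and within the 2 groups compared. Each library was also left out, and its group's remaining library is then assumed to vary like the others.

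Members and lists were chosen with earlier results of these data known. By the rule for naming, the text names called members, the 3 most abundant members and the lowest and highest of each class, Slbp and Npat, and up to 4 called genes of each other list, or its 2 most abundant genes where fewer than 2 were called; Hist1h2ag, Hist1h2bj, Hist2h2be, Hist3h2ba, Hist1h1b, Hist1h2af and the paired genes were added where copies, pairs or single values were described.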

Additional observations from a re-analysis of the deposited data

How the results depend on the processing

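The counts of called members rest on few libraries and settings. For RNase III against wounded corneas, 0 higher was found in every alternative, and 0 lower became 1 (Hist2h2aa2) with a pseudocount of 0.1 and 0 to 1 when a library was left out. For wounded against unwounded corneas, 1 higher became 0 without a filter or trend and 3 with only the 2 groups compared, and ranged from 0 to 3 when a library was left out. The 2 lower became 1 with a pseudocount of 0.1 (H3f3a), 0 with median-of-ratios scaling and 5 with only the 2 groups compared. Without a filter both were lost, and 1 other gene, Hist1h2af, was lower, which entered through its unwounded values alone. The lower count also moved when a library was left out. For RNase III against unwounded corneas, 1 higher became 0 without a filter or trend and ranged from 0 to 1, and the 4 lower became 0 without a filter and 2 with copies summed, and ranged from 1 to 4 when a library was left out. Calls over all genes moved as well. With only the 2 groups compared, 1333 of 14412 genes were higher and 2052 lower after wounding. Without a filter 24958 genes are tested instead of 14748, and 179 were higher and 265 lower after wounding. Against unwounded corneas, 44 were then higher and 25 lower with RNase III. Calls over all genes also changed when a library was left out. For the other settings the cause was not tested.

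Scaling moved the median of all genes from 0.091 to -0.012 for RNase III against wounded, from -0.258 to -0.003 for wounded against unwounded and from -0.162 to -0.009 for RNase III against unwounded corneas. The calls over all genes became 1544 higher and 1007 lower instead of 902 and 1450 after wounding, and 1215 and 781 instead of 696 and 675 for RNase III against unwounded corneas. Replicates share numbers, but the labels do not pair them: deviations of same-numbered libraries correlated at -0.047, 0.103 and 0.146 across genes. With the replicate number as a block, 3 members were higher and 2 lower after wounding, and 2 higher and 7 lower for RNase III against unwounded corneas, where over all 14748 genes 689 were higher and 1343 lower after wounding, and 605 higher and 844 lower with RNase III. Under this block the wound call of Hist1h2bg (limma adjusted p = 0.0523) and the RNase III call of Hist1h2ao against unwounded corneas (0.0519) were lost, as were the wound calls of Srrt (0.0582) and Snrpb (0.0562). No value of a named gene that was called changed sign. Unknown depth and shared sequence limit every low member.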

Other observations

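Histone variants outside the naming rule were also measured. Over all genes, 4.72% were called higher with RNase III than without a wound. H2afy, the gene of macroH2A1, a variant with a large extra domain, averaged 224 TPM with RNase III, 166 TPM after wounding and 102 TPM without a wound. Of 7 such genes it was the 1 called, higher with RNase III than without a wound (1.10, SE 0.23, limma adjusted p = 0.0379), a call that held in 5 of 12 alternatives, and it was not called between RNase III and wounded (0.40, adjusted p = 0.508) or wounded and unwounded corneas (0.70, adjusted p = 0.0786). Cenpa, the H3 variant of centromeres, averaged 75.4 TPM with RNase III, 80.4 TPM after wounding and 41.7 TPM without a wound, and was not called (0.88 after wounding, SE 0.28, adjusted p = 0.0712). H1f0, a linker histone known from cells that no longer divide, averaged 230.4 TPM with RNase III, 175 TPM after wounding and 171 TPM without a wound (0.03 after wounding, SE 0.20, adjusted p = 0.934). H1f0 was thus above Hist1h1c, at 81.1, 70.7 and 67.9 TPM in the same order, in the mean of each group.

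The gene H3f3c, which shares 8.8% of the windows of H3f3a, was higher in both unwounded libraries as well, at 0.73 and 0 TPM with RNase III, 0.26 and 3.37 TPM after wounding and 5.18 and 8.75 TPM without a wound, a level far below that of H3f3a.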
